A study of Mus musculus with 18 samples.

Results

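The transcription factor SRF, its coactivators Mrtfa and Mrtfb, and genes for actin, actin-binding proteins and the cytoplasmic plaque of focal adhesions were followed in embryonic mouse kidney. These 43 genes were taken by symbol from a table of 78317 genes. All 43 passed the filter on low counts, which kept 16544 genes for testing. They are Srf, Mrtfa and Mrtfb; the cytoplasmic actins Actb and Actg1; the crosslinkers Actn1, Actn4, Flna and Flnc; Tpm1, Tpm2, Tpm3, Tpm4 and Cald1, which coat actin filaments; Tln1, Tln2 and Vcl, which couple integrins to actin; 13 LIM-domain genes of stress fibres and adhesions (Zyx, Lpp, Tes, Lima1, Fhl1, Fhl2, Csrp1, Csrp2, Pdlim1, Pdlim3, Pdlim4, Pdlim5 and Pdlim7); the filament assembly genes Diaph1, Diaph2, Diaph3, Vasp and Anln; the actin scaffold genes Palld and Synpo2; and Ilk, Lims1, Parva, Fermt2, Pxn and Tgfb1i1 of the integrin plaque.

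Wild-type kidneys from outbred CD1 mice were taken at embryonic day 14 and exposed for 4 hours to AAV2, an adeno-associated viral vector, then held for 72 hours as explants in a collagen I and matrigel gel. A ubiquitous CAG promoter in each vector drove the red reporter mCherry and 2 hairpin cassettes in a mir30 backbone: both against Mylk (Mylk-shRNA), 1 each against Rock1 and Rock2 (Rock1/2-shRNA), or both shuffled versions of the Rock targets (scramble-shRNA). Explants of a condition were pooled, digested and sorted into an mCherry-positive fraction (the brightest 25% of cells) and an mCherry-negative fraction (the dimmest 50%). Combining vector and fraction gave 6 groups with 3 libraries each, one from each of litters 1, 2 and 3, so the 9 cultures each gave a positive and a negative library from the same pool of kidneys; a negative cell here is a dim cell of a transduced culture, not an untransduced control.

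SRF binds a short DNA element, the CArG box, in the promoters of many cytoskeletal genes. The coactivators MRTF-A and MRTF-B bind monomeric actin and are held in the cytoplasm by it; when actin polymerises they move to the nucleus and switch on SRF targets, many of which encode actin itself and the proteins that bundle filaments and anchor them to integrins. Myosin light chain kinase, encoded by Mylk, and the ROCK kinases act upstream of actomyosin contraction. In the kidney this machinery is prominent in vascular smooth muscle, pericytes, stromal fibroblasts and podocytes.

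The libraries held 3121624 to 12170830 counts each (median 7581392), and p-values measure the spread between litters within a group. Unless a block is named, the fit does not pair the libraries of a litter or a culture. For values averaged over the vectors it thus counts the 9 cultures as separate, although they come from 3 litters. Neither block fits a gap between fractions that differs by litter, so such p-values can be too small. Libraries of litter 3 carried 6.68% ± 1.73 mitochondrial counts (SD, n = 6), against 3.02% ± 0.577 (n = 12) in the others. Mylk stood at 211, 181 and 198 CPM (counts per 1e6 counts of the library) in litters 1, 2 and 3 of the scramble-shRNA positive fraction, at 169, 187 and 168 with Mylk-shRNA, and at 57.8 to 86.3 in every negative library. Rock1 stood at 78.9, 76.5 and 101 CPM in the scramble-shRNA positive fraction and at 82.2, 83.9 and 74.7 with Rock1/2-shRNA, and Rock2 at 65, 67.5 and 81.9 against 56.2, 67.7 and 65. The values of Mylk and Rock1 overlapped between vector and scramble-shRNA libraries, as did those of Rock2. In the litter 3 Rock1/2-shRNA libraries, Xist, which is expressed from the inactive X chromosome of females, was at 3.92 and 1.71 CPM, against 85.2 to 376 in the other 16. Ddx3y, also sex-linked, was at 22.4 and 25 CPM in the positive and negative Rock1/2-shRNA libraries of litter 1. It was at 13.8 and 10.3 in those of litter 2 and at 84 and 83 in those of litter 3. With scramble-shRNA and Mylk-shRNA it was at 37.6 to 69.6. The part of these differences in the comparisons with Rock1/2-shRNA, those of X-linked Flna, Fhl1 and Diaph2 included, was not tested.

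CArG boxes were looked for on both strands of the RefSeq promoter windows (GRCm38.p6), which run from 250 bases before a gene's start to 50 after it and held 36 of the 43 genes. Actb, Csrp2, Diaph1, Parva, Pxn, Tgfb1i1 and Tln2 had no window and were not searched. A box was found in 7 of the 36 (19.4%), namely Srf, Actg1, Vcl, Lima1, Fermt2, Fhl1 and Fhl2, and in 488 of all 27025 genes with a window (1.81%). Because this element is the site through which SRF is known to act, the 100 bases around each match are printed 5′ to 3′ on the gene's strand, with the box in capitals.
Srf (chr17:46556180-46556279, minus strand): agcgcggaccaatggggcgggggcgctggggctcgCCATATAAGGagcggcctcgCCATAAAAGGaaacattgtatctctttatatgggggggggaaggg
Actg1 (chr11:120348531-120348630, minus strand): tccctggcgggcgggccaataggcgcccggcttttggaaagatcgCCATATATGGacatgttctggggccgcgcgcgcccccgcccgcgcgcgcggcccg
Vcl (chr14:20929148-20929247, plus strand): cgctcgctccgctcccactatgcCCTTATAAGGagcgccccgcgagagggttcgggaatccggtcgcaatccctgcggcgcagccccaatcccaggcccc
Lima1 (chr15:99820150-99820249, minus strand): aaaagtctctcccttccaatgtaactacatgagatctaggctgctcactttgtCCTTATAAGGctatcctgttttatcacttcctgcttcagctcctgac
Fermt2 (chr14:45530215-45530314, minus strand): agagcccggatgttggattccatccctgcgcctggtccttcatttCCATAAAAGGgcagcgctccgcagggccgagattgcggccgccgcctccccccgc
Fhl1 (chrX:56779536-56779635, plus strand): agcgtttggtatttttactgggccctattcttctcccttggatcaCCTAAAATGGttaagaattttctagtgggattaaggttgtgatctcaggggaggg
Fhl2, upstream start (chr1:43196803-43196902, minus strand): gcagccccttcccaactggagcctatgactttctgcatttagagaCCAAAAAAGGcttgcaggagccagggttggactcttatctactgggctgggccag
Fhl2, downstream start (chr1:43163962-43164061, minus strand): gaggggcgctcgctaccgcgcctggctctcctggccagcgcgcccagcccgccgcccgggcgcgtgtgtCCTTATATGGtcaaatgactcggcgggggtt
Srf itself carries 2 boxes in tandem, which start 82 and 62 bases upstream of its start, and Fhl2 has 1 box at each of 2 annotated starts. The box closest to a start is that of Fhl2, 31 bases upstream, and the farthest is that of Vcl, 227 bases upstream. The GC box GGGCGG, read on both strands, was in 29 of the 36 (80.6%) against 38.2% of all genes, and the motif CATTCC, the core bound by TEAD factors, in 10 of 36 (27.8%) against 16.6%. The set was built around SRF and the kinds of gene it is known to act on, so its share with a CArG box is no test. The 36 genes had 52 windows and the 27025 had 32851, and more windows give more places for any motif to match. The 27025 also include genes not tested here. A match is a description of these letters and says nothing of binding in these cells.

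Between the fractions, most of these genes were higher in mCherry-positive cells. Averaged over the vectors, 28 of the 43 rose and 2 fell in edgeR's quasi-likelihood test (adjusted p under 0.05 over all genes tested), where 17.6% of all 16544 genes rose and 16% fell (33.6% in all). The 43 were chosen with earlier results of these data known, so an excess over all genes is not independent support. The median log2 fold change of the 43, positive over negative, was 0.36, against -0.03 over all genes. Of the 43 estimates 39 were above 0, against 46.5% of all genes. The 28 were Mrtfa, Mrtfb, Actb, Actn1, Actn4, Flna, Tpm1, Tpm3, Cald1, Tln1, Tln2, Vcl, 9 of the 13 LIM-domain genes, Diaph2, Anln, Synpo2, Ilk, Lims1, Parva and Tgfb1i1. Palld and Pdlim4 fell, and Srf was among the 13 that did not pass. In 11 of the 43 every positive library lay above every negative library, a pattern shown by 6.65% of all genes tested, and 25 were higher in the positive library of 9 of 9 cultures, against 15.2% of all genes. Pdlim4 alone was lower in 9 of 9, against 7.59% of all genes. These 3 counts are on deposited CPM, as are the overlaps given below unless TMM scaling is named. After TMM scaling they were 13 (5.85% of all genes), 24 (12.4%) and 2 (10.5%). The 13 without overlap then included Actb, Lima1 and Mrtfb and no longer Csrp1. In bulk libraries a change in the share of a cell type and a change in RNA per cell cannot be told apart.

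**Figure D1:**
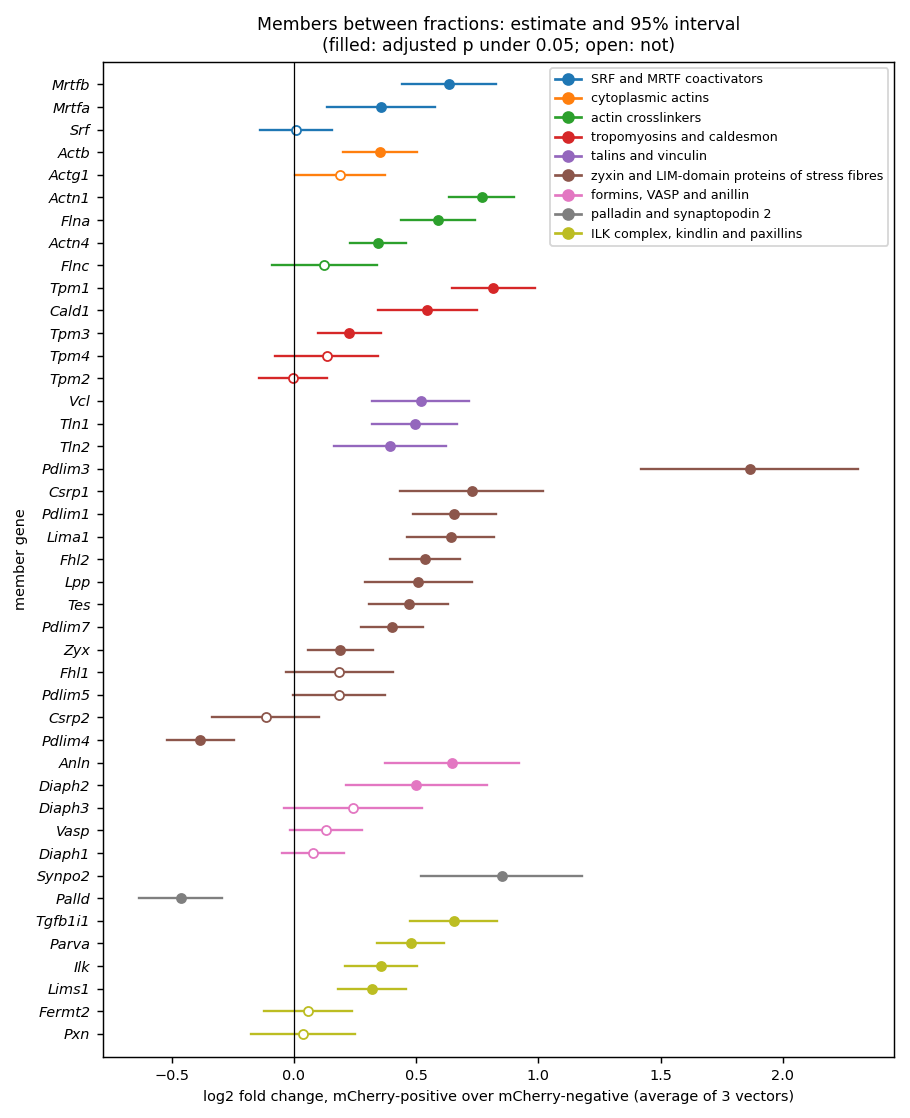
Log2 fold change of the 43 genes in the positive over the negative fraction, averaged over the 3 vectors (x axis), with 95% intervals, by gene (y axis) and coloured by role. Filled points have an adjusted p under 0.05; 28 filled points lie right of 0, and Palld and Pdlim4 lie left of it.

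Markers of other cell types moved with the fractions as well. The interstitial stroma list summed to 3476 to 4132 CPM in the 9 negative libraries and 4981 to 7998 in the 9 positive ones, and 9 of its 10 genes rose. Smooth muscle and pericyte markers summed to 628 to 908 CPM in the negative and 1012 to 1856 in the positive libraries, with 9 of 12 higher and 1 lower. All 9 macrophage markers rose, from sums of 4.36 to 10.4 CPM to 167 to 372, and 3 of the 9 were under 1 CPM in every negative library. Erythroid markers summed to 78.5 to 364 CPM in negative and 341 to 3020 in positive libraries, and 5 of the 6 tested rose. All 8 early nephron markers fell (499 to 917 CPM summed in the negative, 242 to 310 in the positive libraries), as did 8 of 10 nephron progenitor, 7 of 9 ureteric and 7 of 12 endothelial markers, while 1 progenitor and 2 endothelial markers rose. Of 4 podocyte markers tested 2 rose and 2 fell, and of 6 proximal tubule markers tested 1 fell. No marker was at 0 in all libraries of a fraction, and progenitor, early nephron, ureteric and stromal markers were present in both. The part of these cell types in the values below was not tested.

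**Figure D2:**
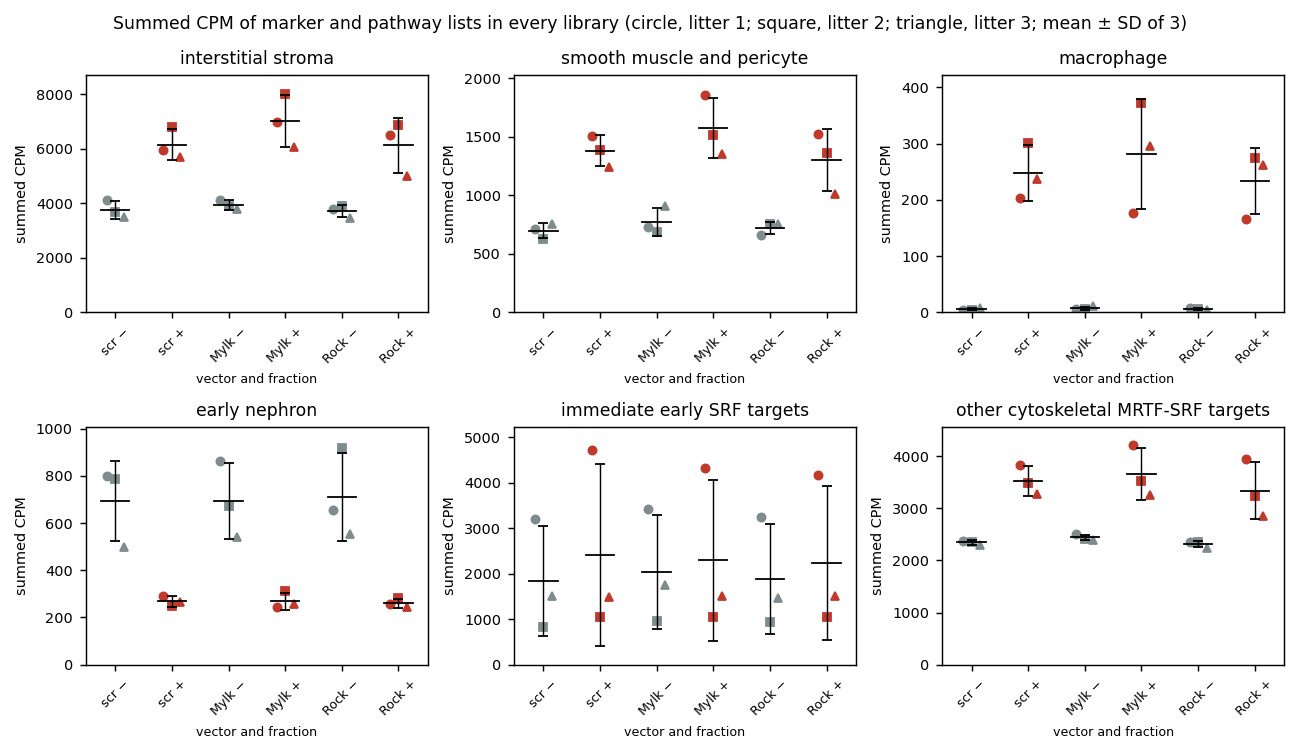
Summed CPM (y axis) of 6 gene lists in each of the 18 libraries by vector and fraction (x axis; minus, negative; plus, positive), with circles, squares and triangles for litters 1, 2 and 3 and the line and bar for mean ± SD of 3. Stromal, smooth muscle and macrophage sums are higher in every positive library than in any negative one, early nephron sums are lower, and immediate early sums separate by litter.

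The coactivator Mrtfb rose and Srf did not pass the test. In the negative fraction Mrtfb stood, for litters 1, 2 and 3 in that order here and below, at 36, 35.2 and 26.7 CPM with scramble-shRNA, 36.5, 32.4 and 33.9 with Mylk-shRNA and 32.5, 37 and 31.5 with Rock1/2-shRNA. In the positive fraction it stood at 55.2, 63.8 and 51.4 CPM with scramble-shRNA, 49.9, 75 and 46.8 with Mylk-shRNA and 47.1, 61.3 and 37 with Rock1/2-shRNA. All 9 cultures were higher in the positive library, and only the litter 3 Rock1/2-shRNA positive library came down to the highest negative value. Its log2 fold change was 0.63 (SE 0.09, adjusted p 2.68e-05), 1.55-fold. Mrtfa, which encodes the other coactivator, stood at 18.8, 15.4 and 21.1 CPM with scramble-shRNA, 19.2, 19.4 and 17.5 with Mylk-shRNA and 18.3, 21.4 and 16.7 with Rock1/2-shRNA in the negative fraction. Its positive values were 26.6, 26.5 and 14.6 CPM with scramble-shRNA, 27.7, 29.5 and 24.5 with Mylk-shRNA and 25.6, 26.7 and 18.6 with Rock1/2-shRNA. It was higher in 8 of 9 cultures, with the litter 3 scramble-shRNA culture the other way, and the fractions overlapped. The log2 fold change was 0.36 (SE 0.11, adjusted p 0.0132). Srf ranged from 29 to 37.5 CPM in the negative (median 31.9) and from 31 to 40.1 in the positive libraries (median 33.3). This gave a log2 fold change of 0.0067 (SE 0.07, adjusted p 0.96), with a 95% interval of -0.14 to 0.15, and its values overlapped across the 2 fractions.

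Of the cytoplasmic actins, whose monomers bind the MRTF proteins, Actb rose. Actb stood at 4627, 4331 and 3888 CPM with scramble-shRNA, 3958, 3767 and 3538 with Mylk-shRNA and 3570, 4776 and 3927 with Rock1/2-shRNA in the negative fraction. The positive values were 5330, 5411 and 4873 CPM with scramble-shRNA, 5123, 6758 and 4846 with Mylk-shRNA and 5434, 5616 and 4755 with Rock1/2-shRNA. Each culture was higher in its positive library, though the highest negative library (litter 2, Rock1/2-shRNA) passed the lowest positive one. The fit gave a log2 fold change of 0.35 (SE 0.07, adjusted p 0.000886). Actg1 stood at 1520, 1494 and 1067 CPM with scramble-shRNA, 1473, 1411 and 1011 with Mylk-shRNA and 1432, 1302 and 1145 with Rock1/2-shRNA in the negative fraction. Positive values were 1600, 1579 and 1387 CPM with scramble-shRNA, 1757, 1728 and 1380 with Mylk-shRNA and 1712, 1601 and 1277 with Rock1/2-shRNA. All 9 cultures were again higher in the positive library, but litter 3 was low in both fractions and the overall spread was wide. That is a log2 fold change of 0.19 (SE 0.09, adjusted p 0.11); with litter fitted as a block the adjusted p was 0.00719, so the call depends on how litters are handled. Actin genes have near-identical copies and pseudogenes, and the sharing of multiply mapped reads is not stated, so their levels are uncertain.

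Of the crosslinkers, Actn1, Actn4 and Flna rose with no overlap between the fractions. Actn1 encodes an alpha-actinin that bundles filaments in stress fibres, and its negative values were 249, 195 and 229.8 CPM with scramble-shRNA, 236, 199 and 226 with Mylk-shRNA and 226, 245 and 215 with Rock1/2-shRNA. In the positive fraction it stood at 423, 375 and 354 CPM with scramble-shRNA, 424, 427 and 365 with Mylk-shRNA and 416, 436 and 354 with Rock1/2-shRNA. The fractions were fully apart, with the highest negative library at 249 CPM and the lowest positive one at 354. Its log2 fold change was 0.77 (SE 0.06, adjusted p 2.81e-08), 1.70-fold. Flna, an X-linked gene for filamin A that links filaments into networks and to integrins, stood at 278, 232 and 266 CPM with scramble-shRNA, 254, 229.8 and 264 with Mylk-shRNA and 239.7, 266 and 259 with Rock1/2-shRNA in the negative fraction. In positive cells it stood at 410.3, 407 and 344 CPM with scramble-shRNA, 433, 522 and 347 with Mylk-shRNA and 403, 403 and 317 with Rock1/2-shRNA. Again no library of a fraction reached into the other, and the Mylk-shRNA litter 2 library was the highest. The log2 fold change was 0.59 (SE 0.07, adjusted p 3.7e-06), 1.5-fold. Actn4, the second non-muscle alpha-actinin and a podocyte disease gene in humans, went from 232 to 295 CPM (median 257) in the negative to 322 to 368 (median 338) in the positive libraries without overlap, a log2 fold change of 0.34 (adjusted p 7.08e-05). Flnc, the filamin of striated muscle, ranged from 54.1 to 92.5 and from 52.2 to 103 CPM and did not pass (log2 fold change 0.12, adjusted p 0.381).

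**Figure D3:**
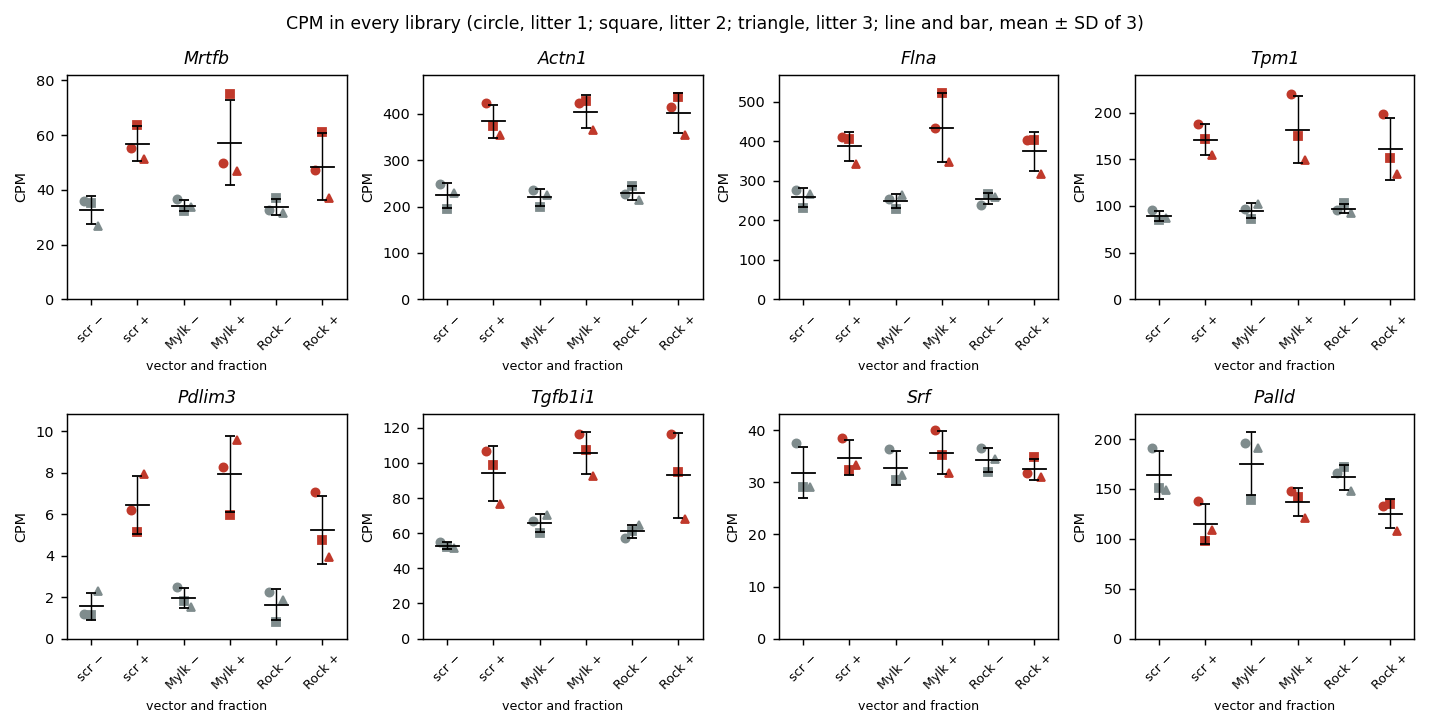
CPM (y axis, from 0) of 8 genes in each of the 18 libraries by vector and fraction (x axis; minus, negative; plus, positive), with circles, squares and triangles for litters 1, 2 and 3 and the line and bar for mean ± SD of 3. Actn1, Flna, Tpm1 and Pdlim3 have no overlap between fractions, Srf is level, and Palld is lower in the positive fraction.

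Among the tropomyosins, which set which motors and binding proteins reach a filament, Tpm1 changed most. Its negative values were 95.5, 84.5 and 87.4 CPM with scramble-shRNA, 97.2, 86 and 102 with Mylk-shRNA and 95.7, 103 and 92.9 with Rock1/2-shRNA. The positive libraries held 187, 171 and 154 CPM with scramble-shRNA, 220.2, 175 and 149 with Mylk-shRNA and 198, 151 and 134 with Rock1/2-shRNA. The lowest positive library, at 134 CPM, lay above the highest negative one, at 103, and within each vector litter 3 was the lowest of the positive libraries. This gave a log2 fold change of 0.82 (SE 0.08, adjusted p 2.49e-07), 1.76-fold. Cald1, for caldesmon, which binds actin and tropomyosin and restrains myosin, stood at 325, 207 and 245 CPM with scramble-shRNA, 254, 209.5 and 359 with Mylk-shRNA and 215, 272 and 216 with Rock1/2-shRNA in the negative fraction. Its positive values were 396, 373 and 391 CPM with scramble-shRNA, 398, 408 and 400.0 with Mylk-shRNA and 387, 395 and 328 with Rock1/2-shRNA. The positive libraries were close together and the negative ones scattered, with litter 3 of Mylk-shRNA at 359 CPM reaching above the lowest positive library. The fit gave a log2 fold change of 0.55 (SE 0.10, adjusted p 0.000212). Tpm3 rose by less, from 141 to 172 CPM in negative to 167 to 205 in positive libraries (log2 fold change 0.23, adjusted p 0.0079), and its call was lost without the filter on low counts (adjusted p 0.14). Tpm2 (log2 fold change -0.00, adjusted p 0.981) and Tpm4 (0.13, adjusted p 0.332) did not pass, and their ranges overlapped widely. Tpm4 values were split by litter: in the positive fraction litter 1 held 439 to 471 CPM and litter 3 held 298 to 317.

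The 3 genes that join integrins to actin all rose. Talin 1, encoded by Tln1, binds and activates integrins, and its negative values were 105, 76.4 and 82 CPM with scramble-shRNA, 80.3, 68.6 and 94.3 with Mylk-shRNA and 76.4, 95 and 80.8 with Rock1/2-shRNA. Positive values were 129.9, 122 and 111 CPM with scramble-shRNA, 125, 156 and 111 with Mylk-shRNA and 127, 131 and 95.7 with Rock1/2-shRNA. Each culture was higher in its positive library, and the litter 1 scramble-shRNA negative library alone lay above the lowest positive one. That is a log2 fold change of 0.49 (SE 0.08, adjusted p 0.000115), 1.41-fold. Vcl, for vinculin, which binds stretched talin and strengthens the link, stood at 64.5, 57.6 and 49.1 CPM with scramble-shRNA, 66.3, 52.7 and 66.2 with Mylk-shRNA and 58.8, 63.2 and 51.6 with Rock1/2-shRNA in the negative fraction. The positive values were 91.8, 93.8 and 68.8 CPM with scramble-shRNA, 100.1, 111 and 71.6 with Mylk-shRNA and 91.9, 97.7 and 60 with Rock1/2-shRNA. All 9 cultures were higher in the positive library, and in each vector litter 3 gave the lowest positive value. Its log2 fold change was 0.52 (SE 0.09, adjusted p 0.000278), 1.43-fold. Tln2, the second talin, ranged from 16.1 to 30.8 CPM (median 19.2) in the negative and 22.3 to 31.4 (median 28.8) in the positive libraries, with a log2 fold change of 0.39 (adjusted p 0.00918).

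The LIM-domain genes, whose products sit on stress fibres and at adhesions and in part respond to tension, held the widest spread: 9 rose, Pdlim4 fell and 3 did not pass. Pdlim3, for a protein that binds alpha-actinin in muscle Z-discs, had low counts, with negative values of 1.19, 1.15 and 2.31 CPM with scramble-shRNA, 2.47, 1.82 and 1.55 with Mylk-shRNA and 2.26, 0.807 and 1.85 with Rock1/2-shRNA. In positive cells it stood at 6.21, 5.16 and 7.93 CPM with scramble-shRNA, 8.28, 5.96 and 9.58 with Mylk-shRNA and 7.05, 4.73 and 3.92 with Rock1/2-shRNA. The fractions did not overlap. The log2 fold change was 1.86 (SE 0.21, adjusted p 1.41e-06), 3.64-fold and the steepest of the 43. Pdlim1, whose product also binds alpha-actinin, stood at 17.9, 18.7 and 18.4 CPM with scramble-shRNA, 23.2, 20.2 and 20.5 with Mylk-shRNA and 20.2, 22.6 and 23.2 with Rock1/2-shRNA in the negative fraction. The positive libraries held 41, 34.2 and 27.9 CPM with scramble-shRNA, 39.2, 34.9 and 27.9 with Mylk-shRNA and 31.7, 34.7 and 28.2 with Rock1/2-shRNA. There was no overlap here either. This gave a log2 fold change of 0.66 (SE 0.08, adjusted p 3.96e-06), 1.58-fold.

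Csrp1, a LIM gene typical of smooth muscle, went from 42.2 to 81 CPM (median 48) to 87.8 to 122 (median 93.5) without overlap on deposited CPM, though not after TMM scaling (log2 fold change 0.73, adjusted p 0.000592). Lima1, for an actin-bundling protein also known as EPLIN, went from a median of 76.2 to 136 CPM (0.64, adjusted p 9.49e-06) and overlapped only at the edge, with 91.7 the highest negative and 91.3 the lowest positive value. Fhl2, a LIM-only gene that is itself a described SRF target, was at 148 to 194 CPM in the negative and 231 to 300.0 in the positive libraries (0.53, adjusted p 5.62e-06). Lpp (0.51, adjusted p 0.000865), Tes (0.47, adjusted p 0.000107) and Pdlim7 (0.40, adjusted p 3.72e-05) passed and were higher in 9 of 9 cultures, and Pdlim7 showed no overlap (53.1 to 73.4 against 74.4 to 87.7 CPM). Zyx, for zyxin, which moves to strained fibres, had the smallest rise of the 9 (0.19, adjusted p 0.0251). Its call was lost in 3 of 18 fits that left out 1 library (the litter 2 negative libraries of scramble-shRNA and Mylk-shRNA and the litter 1 negative library of Rock1/2-shRNA, adjusted p 0.0514 to 0.061) and without the filter on low counts (0.298).

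Pdlim4 went the other way from its relatives. In the negative fraction it stood at 51.6, 43.6 and 49.1 CPM with scramble-shRNA, 59.5, 51.3 and 48.2 with Mylk-shRNA and 55.8, 57.9 and 49.7 with Rock1/2-shRNA. In the positive fraction it stood at 43.8, 39 and 34.6 CPM with scramble-shRNA, 41.8, 40.3 and 44.8 with Mylk-shRNA and 47.4, 40.3 and 39.2 with Rock1/2-shRNA. All 9 cultures were lower in the positive library, although the ranges overlapped between 43.6 and 47.4 CPM. The fit gave a log2 fold change of -0.38 (SE 0.07, adjusted p 0.000168). The other 3 did not pass: Fhl1, an X-linked LIM-only gene (0.19, adjusted p 0.187), Pdlim5 (0.18, adjusted p 0.127) and Csrp2, a smooth muscle LIM gene (-0.12, adjusted p 0.43). Pdlim5 was higher in 8 of 9 cultures, and with litter as a block its adjusted p was 0.0269.

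Of the filament assembly genes, Anln and Diaph2 rose, and Diaph1, Diaph3 and Vasp did not pass. Anln, for anillin, which scaffolds the contractile ring of dividing cells, stood at 55.2, 38.5 and 27.8 CPM with scramble-shRNA, 45.4, 38.6 and 30.1 with Mylk-shRNA and 44.7, 37.5 and 27.4 with Rock1/2-shRNA in the negative fraction. Its positive values were 70.8, 61.5 and 49.2 CPM with scramble-shRNA, 77.1, 70 and 51.9 with Mylk-shRNA and 71.1, 67.6 and 43.6 with Rock1/2-shRNA. Litter 1 was the highest and litter 3 the lowest in both fractions of every vector, and each culture was higher in its positive library. That is a log2 fold change of 0.65 (SE 0.13, adjusted p 0.000825), 1.56-fold; of 10 proliferation markers, 6 rose beside it (10 with litter as a block), with sums of 565 to 1009 CPM in the negative and 799 to 1171 in the positive libraries. Diaph2, an X-linked formin gene, stood at 11.2, 7.97 and 7.97 CPM with scramble-shRNA, 10.4, 6.47 and 14.9 with Mylk-shRNA and 6.35, 8.76 and 6.41 with Rock1/2-shRNA in the negative fraction. Positive values were 10.8, 14.3 and 12.1 CPM with scramble-shRNA, 11.8, 14.8 and 11 with Mylk-shRNA and 14.1, 15.1 and 11 with Rock1/2-shRNA. The fractions overlapped, and 2 cultures, litter 1 of scramble-shRNA and litter 3 of Mylk-shRNA, were lower in the positive library. Its log2 fold change was 0.50 (SE 0.14, adjusted p 0.00817). The formin gene Diaph1 (0.08, adjusted p 0.345), Diaph3 (0.24, adjusted p 0.182) and Vasp, for a protein that speeds filament elongation (0.13, adjusted p 0.163), had overlapping ranges, and Vasp was higher in the positive library of 9 of 9 cultures by CPM and of 7 after TMM scaling. With litter as a block the adjusted p of Diaph3 was 0.0112.

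The scaffold genes Palld and Synpo2 moved in opposite directions. Palld, for palladin, an alpha-actinin partner in stress fibres, stood at 191, 151 and 149 CPM with scramble-shRNA, 196, 139 and 191 with Mylk-shRNA and 166, 172 and 148 with Rock1/2-shRNA in the negative fraction. The positive values were 138, 98.3 and 109 CPM with scramble-shRNA, 148, 142 and 121 with Mylk-shRNA and 133, 135 and 108 with Rock1/2-shRNA. It was lower in the positive library of 8 of 9 cultures by CPM, and in litter 2 of Mylk-shRNA the values were 139 and 142. After TMM scaling it was lower in 9 of 9. The log2 fold change was -0.46 (SE 0.08, adjusted p 0.000184). Synpo2, for the smooth and striated muscle protein myopodin, stood at 4.95, 2.96 and 5.91 CPM with scramble-shRNA, 5.21, 4.06 and 4.20 with Mylk-shRNA and 4.96, 3.80 and 3.42 with Rock1/2-shRNA in the negative fraction. In positive cells it stood at 7.37, 7.86 and 5.71 CPM with scramble-shRNA, 8.18, 8.58 and 9.58 with Mylk-shRNA and 12.8, 7.22 and 6.61 with Rock1/2-shRNA. The 2 ranges overlapped only through the litter 3 scramble-shRNA culture, where the positive library (5.71) was just below its negative partner (5.91). This gave a log2 fold change of 0.85 (SE 0.16, adjusted p 0.000327), 1.80-fold.

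In the integrin plaque the 3 partners of the ILK, PINCH and parvin complex rose together with Tgfb1i1, while Fermt2 and Pxn did not pass. Tgfb1i1, for Hic-5, a paxillin relative found in smooth muscle and myofibroblasts, stood at 55.2, 52.3 and 51.4 CPM with scramble-shRNA, 67.2, 59.8 and 70.1 with Mylk-shRNA and 57.4, 61.2 and 64.8 with Rock1/2-shRNA in the negative fraction. The positive libraries held 107, 98.7 and 76.7 CPM with scramble-shRNA, 116, 108 and 92.7 with Mylk-shRNA and 116, 94.8 and 68.1 with Rock1/2-shRNA. Every culture was higher in its positive library, and litter 3 of Rock1/2-shRNA showed the smallest gap. The fit gave a log2 fold change of 0.65 (SE 0.08, adjusted p 7.01e-06), 1.57-fold. Parva, for alpha-parvin, stood at 102, 86.7 and 82.3 CPM with scramble-shRNA, 92.3, 90 and 85.6 with Mylk-shRNA and 101, 99.5 and 77.7 with Rock1/2-shRNA in the negative fraction. Its positive values were 126, 139.6 and 119 CPM with scramble-shRNA, 142, 149 and 121 with Mylk-shRNA and 144, 132 and 108 with Rock1/2-shRNA. The fractions did not overlap. That is a log2 fold change of 0.48 (SE 0.06, adjusted p 1.17e-05). Ilk, for the integrin-linked pseudokinase at the centre of that complex, was at 122 to 160 CPM in the negative and 175 to 194 in the positive libraries (0.36, adjusted p 0.000608), and its partner Lims1 rose by 0.32 (adjusted p 0.00101). Fermt2, for the integrin activator kindlin-2, gave 0.06 (adjusted p 0.647), and without litter 3 it gave 0.20 (adjusted p 0.0478). Pxn, for paxillin, gave 0.04 (adjusted p 0.827), with overlapping ranges of 32.4 to 52 and 28.9 to 60.5 CPM.

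Read against the promoter windows, the rises were not limited to genes with a CArG box. Of the 7 with a box, Fhl2, Lima1 and Vcl rose and 4 did not pass, with a median log2 fold change of 0.19. Of the 29 without one, 21 rose, 2 fell and 6 did not pass, with a median of 0.40. Of all genes tested, 17.6% rose and 16% fell. Srf, with 2 boxes, was level between the fractions, and Pdlim3, Synpo2 and Tpm1, with the largest log2 fold changes of the matched genes, had no box in this window. The windows cover only the bases next to a start, and the genes without a window, Actb among them, are in neither set. The 2 sets were not compared by a test, and the part of SRF in these rises was not tested.

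Within single vectors the estimates were of like size and fewer passed. With scramble-shRNA 17 of the 43 rose and 1, Palld, fell, where 7.43% of all genes rose and 4.85% fell. With Mylk-shRNA 18 rose and Pdlim4 fell (8.07% and 5.14% of all genes), and with Rock1/2-shRNA 16 rose and Pdlim4 fell (6.94% and 4.3%). The median log2 fold changes were 0.36, 0.37 and 0.38. With litter as a block, 26 of the 43 were called for Rock1/2-shRNA in place of 17, while the share of all genes called went from 11.2% to 20.4%. The counts per vector rest on few libraries: without the litter 2 positive or negative library of scramble-shRNA, 10 and 8 of the 43 were called in place of 18; without the litter 1 or litter 2 positive library of Mylk-shRNA, 10 and 12 in place of 19; and for Rock1/2-shRNA, 5 and 7 without the positive libraries of litters 1 and 2, and 9, 11 and 10 without the negative libraries of litters 1, 2 and 3. Fewer of all genes were called in these fits too: 7.05% and 7.04% for scramble-shRNA in place of 12.3%, 8.43% and 8.98% for Mylk-shRNA in place of 13.2%, and 7.24%, 6.94%, 7.67%, 7.31% and 8.97% for Rock1/2-shRNA in place of 11.2%. Pdlim3 had log2 fold changes of 2.11 with scramble-shRNA, 1.92 with Mylk-shRNA and 1.56 with Rock1/2-shRNA (adjusted p 0.000902, 0.000931 and 0.00893). Actn1 gave 0.72, 0.81 and 0.77 (adjusted p 0.000201, 5.8e-05 and 0.000125), and Tpm1 gave 0.89, 0.88 and 0.68 (adjusted p 0.000259, 0.000278 and 0.0029).

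Culture by culture, the median ratio of the 43 was lowest in litter 3 with each vector. On TMM-scaled CPM, the median log2 ratio of the 43 in litters 1, 2 and 3 was 0.30, 0.47 and 0.23 with scramble-shRNA, 0.40, 0.45 and 0.24 with Mylk-shRNA, and 0.46, 0.39 and 0.22 with Rock1/2-shRNA. The median of all genes lay between -0.03 and 0.02 in these cultures. Between 31 and 40 of the 43 had a ratio above 0 in a culture, and the lowest number was in litter 3 of Rock1/2-shRNA. Litter 3 is also the litter with the highest mean mitochondrial share. Its scramble-shRNA positive library, at 3.95%, lay within the 2.01% to 4.02% of the other litters. The litter 3 libraries were shallower as well, with a median of 3987213 counts against 9169668 in litters 1 and 2. Whether these traits are linked to the ratios was not tested. Without litter 3 the median log2 fold change averaged over the vectors was 0.44 and 32 of the 43 were called.

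**Figure D4:**
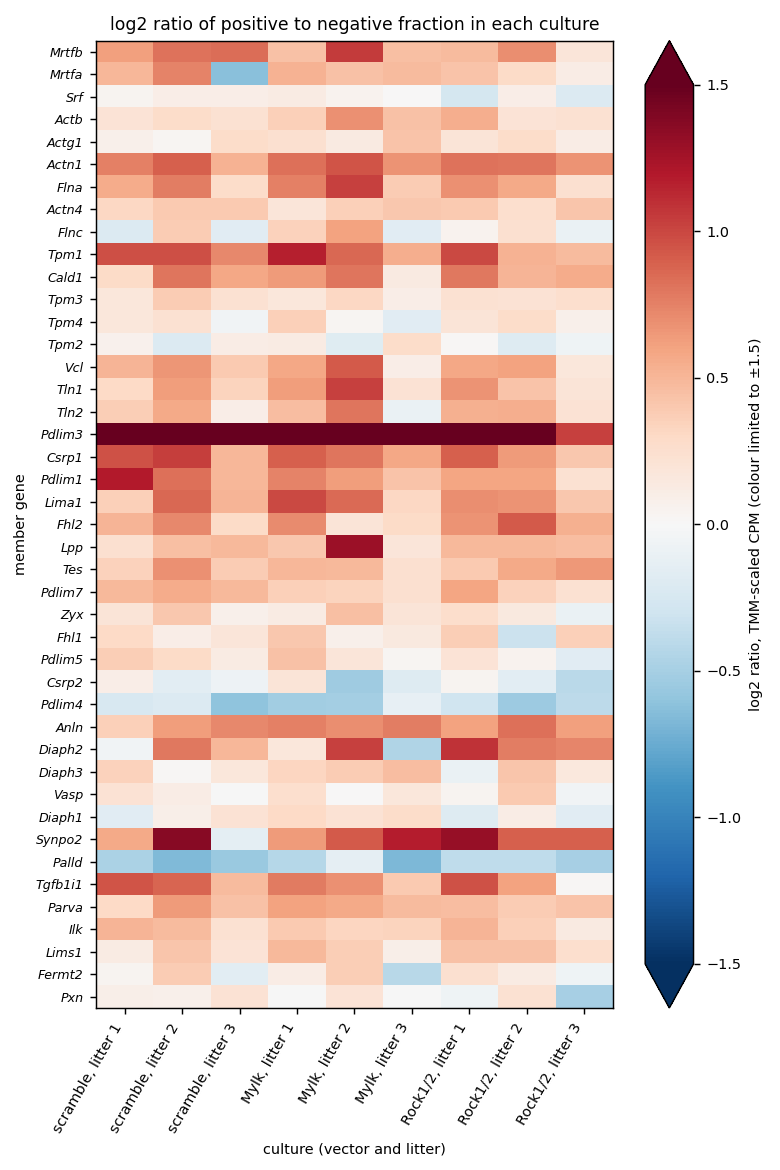
Log2 ratio of positive to negative TMM-scaled CPM (colour, limited to 1.5 either way) for the 43 genes (y axis) in each of 9 cultures (x axis). Actn1, Tpm1 and Pdlim3 are red in each column, Palld and Pdlim4 are blue in each, and the litter 3 columns are paler.

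Other genes of the pathway were read from 5 lists, also chosen with earlier results of these data known. Of 4 SRF partners of the ternary complex and myocardin families, Myocd, the smooth muscle coactivator, rose 2.81-fold (adjusted p 0.000416) from low levels of 0.581 to 1.85 CPM to 1.71 to 5.90, and Elk1 (log2 fold change 0.16, adjusted p 0.228), Elk3 and Elk4 (0.14, adjusted p 0.278) did not pass. With litter as a block, Elk1 passed as well. Of 20 other cytoskeletal MRTF and SRF targets, 15 rose, 1 fell and 4 did not pass, with a median of 0.72. Among them Myl9, for the regulatory myosin light chain, rose 3.83-fold (adjusted p 8.23e-08), Myh11, for smooth muscle myosin, 8.02-fold (adjusted p 1.69e-06) and Smtn, for smoothelin, 1.63-fold (adjusted p 1.36e-06). The exception was Enah, a relative of Vasp, which fell by 0.47 on the log2 scale (adjusted p 7.45e-06). This list shares 5 genes with the smooth muscle markers (Acta2, Cnn1, Myh11, Smtn and Tagln), and Myocd is on both a pathway list and the marker list.

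The immediate early targets, which SRF drives largely through ternary complex factors, had summed levels that were split by litter. Of 12, 2 rose and 10 did not pass (median 0.33), a share near the 17.6% of all genes that rose. With litter as a block 6 of the 12 rose (Dusp1, Egr1, Egr2, Egr3, Fosb and Nr4a1), against 22.2% of all genes in that fit. Egr3 rose 2.14-fold (adjusted p 0.000107) and Egr2 1.48-fold (adjusted p 0.0281), and Nr4a1 gave 0.70 on the log2 scale (adjusted p 0.146). The summed level of the 12 was 3195 to 4723 CPM in litter 1, 830 to 1049 in litter 2 and 1456 to 1758 in litter 3, with no overlap between litters. Within litter 1 the 3 positive libraries (4180 to 4723 CPM) lay above the 3 negative ones (3195 to 3417), as they did in litter 2 (1039 to 1049 over 830 to 956). In litter 3 only the Rock1/2-shRNA culture was higher in its positive library, which makes 7 of 9 cultures in all. Of 19 genes for monomer binding, the Arp2/3 complex and capping, 7 rose and 12 did not pass (median 0.07): Gsn, for the severing protein gelsolin, rose 2.01-fold (adjusted p 1.12e-08), and Arpc1b and Arpc4, subunits of Arp2/3, rose 1.55-fold and 1.24-fold (adjusted p 0.000141 and 0.000101). Of 22 other plaque and signalling genes, 5 rose, 3 fell and 14 did not pass (median 0.01), shares near the 17.6% and 16% of all genes. There Tns3, for tensin 3, rose 1.52-fold (adjusted p 4.9e-05), while Parvb, the parvin relative of Parva, fell by 0.69 (adjusted p 4.49e-06) and Fermt1, the kindlin of epithelia, fell by 1.74 (adjusted p 0.000864) on the log2 scale.

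The next comparisons set the libraries of the hairpin vectors, labelled by their target genes, against scramble-shRNA and against each other. The target transcripts themselves overlapped between these libraries, as given above. None of the 43 passed the test in any of the 6 comparisons between vectors, and neither did any gene of the table (0% called). In the positive fraction, Mylk-shRNA over scramble-shRNA gave log2 fold changes from -0.13 to 0.32 with a median of 0.07 (0.01 over all genes). Of the 43 estimates 36 were above 0, against 51.7% of all genes. Also above 0 were 10 of 10 stromal, 10 of 12 smooth muscle and pericyte, 8 of 9 macrophage and 7 of 12 endothelial markers. Few were in other lists: 3 of 10 progenitor, 2 of 8 early nephron, 3 of 9 ureteric and 0 of 6 proximal tubule markers. Podocyte, erythroid and proliferation markers gave 2 of 4, 0 of 6 and 3 of 10. Genes that vary together are not independent signs, and the part of cell types was not tested. None of the 43 had an unadjusted p under 0.05, against 258 of all genes (1.56%). The 95% interval of a gene was 0.31 wide on either side at the median, and it lay within a 1.5-fold change for 37 of the 43 and within a 2-fold change for 42. Rock1/2-shRNA over scramble-shRNA gave -0.30 to 0.27 with a median of -0.03 (0.00 over all genes). Of the 43, 16 were above 0 (50.9% of all genes) and none had an unadjusted p under 0.05 (145 of all genes, 0.876%). The interval lay within 1.5-fold for 40 and within 2-fold for 42. DESeq2 also called none of the 43 in each comparison, with 0 at an unadjusted p under 0.05 in both of these. A missing call does not show that the vectors act alike.

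The smallest p-values in the positive fraction belonged to Vasp, Palld and Mrtfa for Mylk-shRNA and to Mrtfb, Diaph1 and Fhl2 for Rock1/2-shRNA. Vasp stood at 175, 175 and 134 CPM with scramble-shRNA, at 200.2, 182 and 190.3 with Mylk-shRNA, and at 164, 177 and 134 with Rock1/2-shRNA. By CPM every Mylk-shRNA library was above every library of the other vectors. After TMM scaling this did not hold, as litter 2 with Mylk-shRNA came below litter 2 of the other vectors. The share of all genes set apart in this way was not counted. Diaph1 stood at 29.5, 34.3 and 34.2 CPM with scramble-shRNA, 33.7, 35 and 31.6 with Mylk-shRNA and 27.9, 33.2 and 26.3 with Rock1/2-shRNA, and Fhl2 at 249, 269 and 236 CPM with scramble-shRNA, 300.0, 247 and 231 with Mylk-shRNA and 283, 285 and 266 with Rock1/2-shRNA. Both overlapped between the vectors. For Vasp the log2 fold change was 0.22 (SE 0.12, 95% interval -0.03 to 0.47, unadjusted p 0.0829) for Mylk-shRNA over scramble-shRNA, and 0.26 (SE 0.12, 95% interval 0.0017 to 0.51, unadjusted p 0.0486) over Rock1/2-shRNA. Palld gave 0.23 (SE 0.14, 95% interval -0.06 to 0.53, unadjusted p 0.115) and Mrtfa 0.22 (SE 0.18, 95% interval -0.16 to 0.61, unadjusted p 0.239) for Mylk-shRNA. For Rock1/2-shRNA over scramble-shRNA, Mrtfb gave -0.23 (SE 0.16, 95% interval -0.56 to 0.11, unadjusted p 0.175), Diaph1 -0.15 (SE 0.11, 95% interval -0.37 to 0.07, unadjusted p 0.231) and Fhl2 0.14 (SE 0.12, 95% interval -0.10 to 0.39, unadjusted p 0.237). The intervals reached past 0 in each of these but Vasp between the hairpin vectors. Between Mylk-shRNA and Rock1/2-shRNA the median was 0.08, 36 of 43 were above 0 (50.2% of all genes) and Vasp alone had an unadjusted p under 0.05 (1.2% of all genes). Above 0 there were 9 of 10 stromal, 11 of 12 smooth muscle and pericyte, 10 of 12 endothelial and 8 of 9 macrophage markers. So were 6 of 10 progenitor, 5 of 6 erythroid and 2 of 4 podocyte markers. Only 2 of 8 early nephron, 1 of 9 ureteric, 1 of 6 proximal tubule and 2 of 10 proliferation markers were. Pdlim3 gave 0.62 (SE 0.34, 95% interval -0.09 to 1.34, unadjusted p 0.0823) and Pdlim5 0.28 (SE 0.16, 95% interval -0.06 to 0.61, unadjusted p 0.0984). The positive values of Pdlim5 were 35.1, 28.7 and 21.6 CPM with scramble-shRNA, 36.7, 32.4 and 27.6 with Mylk-shRNA and 30.4, 27.8 and 21.8 with Rock1/2-shRNA, and the vectors overlapped. These comparisons share libraries and are not independent of one another.

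**Figure D5:**
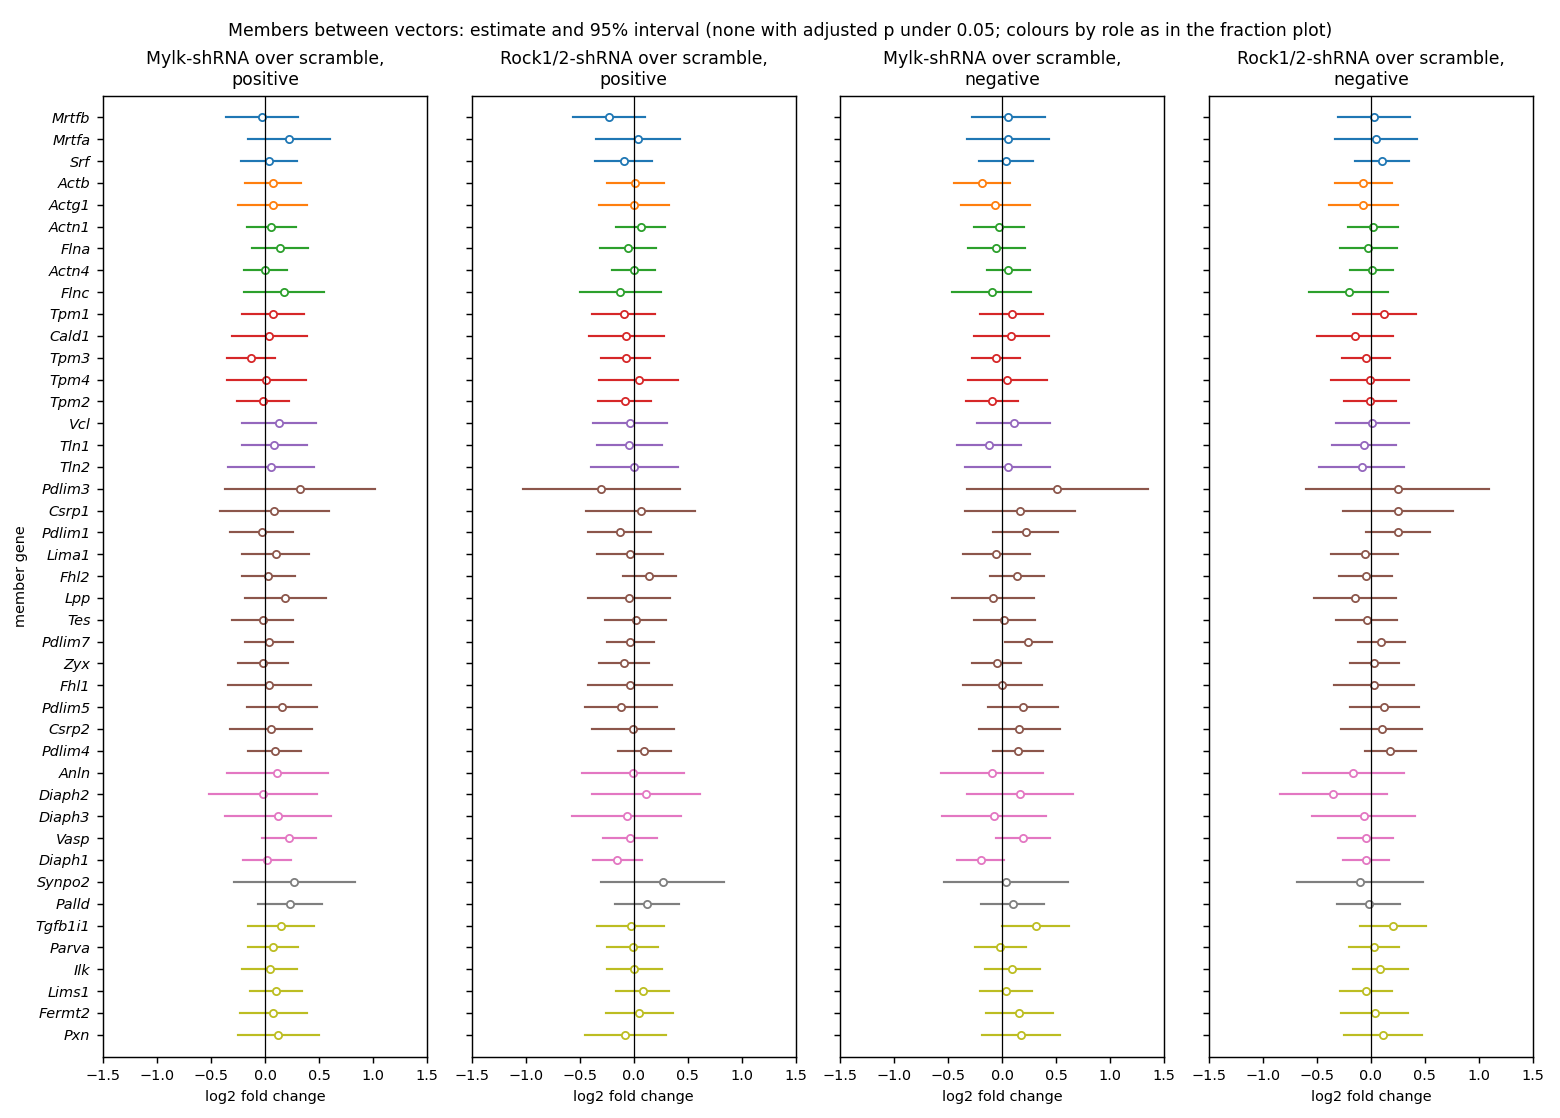
Log2 fold change of the 43 genes (y axis) for each hairpin vector over scramble-shRNA in the positive and the negative fraction (4 panels, x axis), with 95% intervals and colours by role. No gene has an adjusted p under 0.05, and most intervals span 0; Pdlim3, with the lowest counts, has the widest.

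In the negative fraction, Mylk-shRNA over scramble-shRNA gave -0.20 to 0.51 with a median of 0.05, and 27 of 43 were above 0 (52.1% of all genes). Pdlim7 stood at 56.1, 53.1 and 56.3 CPM with scramble-shRNA, 63.5, 58.8 and 73.4 with Mylk-shRNA and 54.6, 61.1 and 61.4 with Rock1/2-shRNA. All 3 Mylk-shRNA libraries were above the scramble-shRNA ones. Its log2 fold change was 0.24 (SE 0.10, 95% interval 0.02 to 0.46, unadjusted p 0.0334), and Tgfb1i1 gave 0.31 (SE 0.15, 95% interval from just above 0 to 0.62) and Diaph1 -0.20 (SE 0.10, 95% interval -0.42 to 0.01, unadjusted p 0.0651). Pdlim7 and Tgfb1i1, the latter at the limit, were the 2 of 43 with an unadjusted p under 0.05, against 285 of all genes (1.72%), and neither passed after adjustment. Diaph1 stood at 33.2, 31.1 and 27.5 CPM with scramble-shRNA, 27.2, 27 and 25.9 with Mylk-shRNA and 30.5, 30.2 and 28.5 with Rock1/2-shRNA, with the Mylk-shRNA libraries below the scramble-shRNA ones. For Tgfb1i1 the 3 scramble-shRNA libraries (51.4 to 55.2 CPM) lay below the 3 with Mylk-shRNA (59.8 to 70.1). Rock1/2-shRNA over scramble-shRNA gave -0.35 to 0.25 with a median of -0.01. Of the 43, 21 were above 0 (52.2% of all genes) and none had an unadjusted p under 0.05 (1.21% of all genes). Pdlim1 gave 0.25 (SE 0.14, 95% interval -0.04 to 0.55, unadjusted p 0.0884), Pdlim4 0.18 (SE 0.11, 95% interval -0.05 to 0.41, unadjusted p 0.122) and Diaph2 -0.35 (SE 0.24, 95% interval -0.84 to 0.15, unadjusted p 0.159). Between Mylk-shRNA and Rock1/2-shRNA the median was 0.05, and Diaph2 alone had an unadjusted p under 0.05, against 0.731% of all genes. Negative values of Vasp were 150.3, 158 and 125 CPM with scramble-shRNA, 167, 161 and 167 with Mylk-shRNA and 153, 133 and 134 with Rock1/2-shRNA, and those of Fhl2 were 174, 159 and 181 CPM with scramble-shRNA, 182, 194 and 188 with Mylk-shRNA and 171, 148 and 178 with Rock1/2-shRNA. In both genes every Mylk-shRNA library was above every Rock1/2-shRNA one by CPM. After TMM scaling this held for Vasp but not for Fhl2. The share of all genes whose libraries are set apart between vectors in this way was not counted. Diaph2 gave 0.51 (SE 0.24, 95% interval 0.01 to 1.00, unadjusted p 0.0448), Vasp 0.24 (SE 0.12, 95% interval -0.01 to 0.49, unadjusted p 0.06) and Fhl2 0.19 (SE 0.12, 95% interval -0.06 to 0.43, unadjusted p 0.132). DESeq2 called none in these comparisons either, with 2, 0 and 1 of the 43 at an unadjusted p under 0.05.

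Whether a vector altered the difference between fractions was tested as an interaction. For Mylk-shRNA against scramble-shRNA 0% of all genes and none of the 43 passed, with estimates of -0.25 to 0.28 and a median of 0.01. For Rock1/2-shRNA none passed (again 0% of all genes), with estimates of -0.55 to 0.46 and a median of -0.01. At an unadjusted p under 0.05 there were 0 of the 43 in both, by edgeR and by DESeq2, and 217 (1.31%) and 145 (0.876%) of all genes by edgeR. For Mylk-shRNA the smallest p-values were those of Diaph1, with an interaction of 0.22 (SE 0.15, 95% interval -0.09 to 0.53, unadjusted p 0.151), and Actb, with 0.26 (SE 0.18, 95% interval -0.11 to 0.63, unadjusted p 0.153). For Rock1/2-shRNA they were those of Pdlim1, with -0.38 (SE 0.20, 95% interval -0.80 to 0.03, unadjusted p 0.0692), and Diaph2, with 0.46 (SE 0.34, 95% interval -0.24 to 1.17, unadjusted p 0.186). Their intervals all included 0. For Pdlim1 the mean CPM in the positive over the negative fraction was 34.4 ± 6.55 over 18.3 ± 0.413 (SD, n = 3 each) with scramble-shRNA and 31.5 ± 3.26 over 22 ± 1.58 (SD, n = 3 each) with Rock1/2-shRNA. The interval of an interaction lay within a 1.5-fold change for 27 of the 43 with Mylk-shRNA and 26 with Rock1/2-shRNA, and for the rest it reached beyond that, so a change of that size cannot be told from none there.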

How the data were processed

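Poly(A) RNA from sorted cells of cultured kidneys was captured and tagmented from 100 to 300 ng of total RNA, per the labels' protocols. The submitters' processing notes name fastp 0.24.0, STAR 2.7.11, featureCounts of Subread 2.1.1, SAMtools 1.22.1, FastQC 0.12.1, MultiQC 1.32 and GRCm39. Settings, annotation and strand use: not given in the sources used here. Deposited by the authors were an estimated count and a CPM value per gene and library. Of the nonzero deposited counts of a library, 22.1 to 27.4% were fractions. The authors' CPM values were checked to be counts per 1e6 of each library's total. CPM is not scaled by gene length, so levels of different genes were not ranked.

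Counts were rounded, 92 spike-in rows were dropped, and low genes were removed by filterByExpr of edgeR (at least 10 counts, total of at least 15), leaving 16544 of 78317. After TMM scaling, edgeR's quasi-likelihood test (edgeR 4.0.16, R 4.3.3, robust) took all 18 libraries in 1 model with a mean for each group (residual df 12, common biological CV 0.165). The Benjamini-Hochberg adjustment ran over all genes in each of 12 comparisons, with a threshold of 0.05. Adjusted p-values without another tool's name are from this test. Intervals are 95% intervals of the fit and SDs are of CPM. Alternatives were DESeq2 1.42.0 and its size factors, no filter, only the compared groups, litter or culture as a block, and leaving out each library or litter 3.

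The 43 genes and all lists were chosen with earlier results of these data known. Genes given by library are the 2 with the smallest p of each role and the 3 (interactions: 2) with the smallest p of each vector comparison; Pdlim4 was added because it fell. From each pathway list the 3 genes with the smallest p were named, and Enah and Elk3 were added after their values were seen.

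The labels give the replicate number as the litter. Deviations from group means correlated with r = 0.242 to 0.663 in 45 library pairs of the same litter and -0.808 to 0.319 in 108 pairs of different litters, 18 of them within a group. Deviations sum to 0 within a group, which pushes pairs of different litters below 0, so this contrast is in part built in. Within groups, the chi-square between 2 libraries was 3.99 to 49.3 per gene, so none was a duplicate. Promoter windows were matched by symbol to RefSeq (GRCm38.p6). No gene coordinates of GRCm39 are given.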

Additional observations from a re-analysis of the deposited data

How the results depend on the processing

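The number of the 43 genes called between fractions, averaged over the vectors, was 30 and stayed at 28 to 33 in every other setting run: 30 with DESeq2's size factors and with DESeq2's test, 28 without the filter on low counts, 33 with litter and 33 with culture as a block, 32 without litter 3 and 29 to 31 with 1 library left out. The share of all genes called in these fits was 33.6%, 33.8% with the size factors, 10.4% with DESeq2 and 9.68% without the filter (both over a larger set of genes), 45.8% and 43.9% with the blocks, 38% without litter 3 and 29% to 35.1% with 1 library left out. The 30 were all called again with either block. Counts within a vector moved more, as did the shares of all genes called. Without the filter, 11 were called for scramble-shRNA in place of 18 and 11 for Rock1/2-shRNA in place of 17. With only the groups compared in the fit, 12 were called for Mylk-shRNA in place of 19. The paired fits, with litter or culture as a replicate block, gave 26 for Rock1/2-shRNA, while the litter block gave 23 for scramble-shRNA and 27 for Mylk-shRNA. With 1 library left out the counts ran from 8 to 15 for scramble-shRNA, 10 to 20 for Mylk-shRNA and 5 to 20 for Rock1/2-shRNA. The cause of these moves was not tested. Estimates near 0 changed sign: Srf gave -0.0092 without the filter and -0.031 to 0.042 with 1 library left out, Tpm2 -0.028 to 0.044 and Pxn -0.0029 to 0.10. All 8 comparisons of vectors and interactions had 0 calls among the 43 in every setting run, blocks included. Without the filter or with DESeq2, the median of all genes between fractions was -0.16 or 0.15 in place of -0.03, over a different set of genes. With 3 litters per group, the 95% interval of a gene between vectors had a median half-width of 0.31 on the log2 scale, and Pdlim3, at under 10 CPM throughout, was the least precise.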
